A study of Mus musculus with 2 samples.

Results

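Ureteric tip nuclei were examined in 2 single-nucleus RNA sequencing libraries of whole mouse kidney, 1 from embryos shortly before birth (E18.5) and 1 at postnatal day 3 (P3). They were chosen by what they expressed. A nucleus was included when at least 3 of 7 tip genes (Ret, Wnt11, Ros1, Slco4c1, Hs3st3a1, Dok6 and Nrg3) and at most 1 of 5 trunk genes (Aqp2, Aqp4, Slc14a2, Fxyd4 and Scnn1b) had a unique molecular identifier (UMI), the tag that counts 1 captured RNA molecule. The nucleus also had to hold 1000 to 6000 UMIs at E18.5 or 1000 to 10000 at P3, with at most 0.6% of them mitochondrial. At E18.5, 470 of 18673 nuclei within these UMI and mitochondrial limits were chosen, or 2.52% (2.30 to 2.75, 95% exact binomial interval). At P3, 173 of 9289 were, or 1.86% (1.60 to 2.16). The files held 21600 barcodes with 77688411 UMIs at E18.5 and 12216 barcodes with 70559806 UMIs at P3, and 69 barcode sequences occurred in both.

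The E18.5 kidneys carried floxed alleles of both Myc and Mycn with no Cre recombinase (Mycf/f;Mycnf/f) on a mixed background, and the P3 kidneys were wild type, C57BL/6J. Kidneys of males and females were pooled at each age. With 1 library per age, no test between ages or between groups of nuclei was possible, and every interval given here is a 95% exact interval that covers counting error only. Age, genotype, background, library and counting software changed together and cannot be told apart.

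The ureteric bud is the epithelium that branches into the collecting system of the kidney. Its tips carry the receptor Ret, which with the co-receptor Gfra1 receives GDNF from the surrounding nephron progenitors and switches on the transcription factors Etv4 and Etv5. Tip cells divide, branch and secrete Wnt11, and cells left behind form the trunk, which matures into collecting duct with water channels and sodium channels. Branching goes on around birth in the mouse and ends in the first days after it.

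Levels are given in CPM, the UMIs of a gene summed over a group of nuclei per 1000000 UMIs of that group. The tip nuclei held 1693830 UMIs at E18.5 and 1012379 at P3, so that 3 UMIs, taken as the floor, correspond to 1.77 and 2.96 CPM. They were compared with all other nuclei within the limits, 18203 at E18.5 and 9116 at P3. They were also compared with principal-like nuclei, which had at least 3 of the 5 trunk genes and at most 1 tip gene and numbered 282 and 119, with median depths of 3627 and 5576 UMIs. Endothelium-marked nuclei, 1785 and 1190 with at least 3 of 7 endothelial genes, give the level of a gene in another cell type. That level can hold free RNA, RNA of another nucleus in the same droplet and the cells' own expression, and their parts were not tested. The reads come from 3' ends of nuclear RNA, and levels are compared between groups of nuclei, not between genes.

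Most nuclei had no tip gene, and fewer had 3 than had 2. At E18.5, with at most 1 trunk gene, 13677 nuclei had 0 tip genes, 2970 had 1 and 408 had 2, just outside the rule. Inside it, 157 nuclei had 3, 117 had 4, 103 had 5, 75 had 6 and 18 had all 7. At P3 the numbers were 6262, 2007 and 334 outside the rule and 59, 45, 38, 25 and 6 inside it. A further 105 nuclei at E18.5 and 51 at P3 had at least 3 tip genes but 2 or more trunk genes, and these were left out by the rule. No trunk gene was found in 302 of the 470 tip nuclei at E18.5 and in 89 of the 173 at P3.

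**Figure D1:**
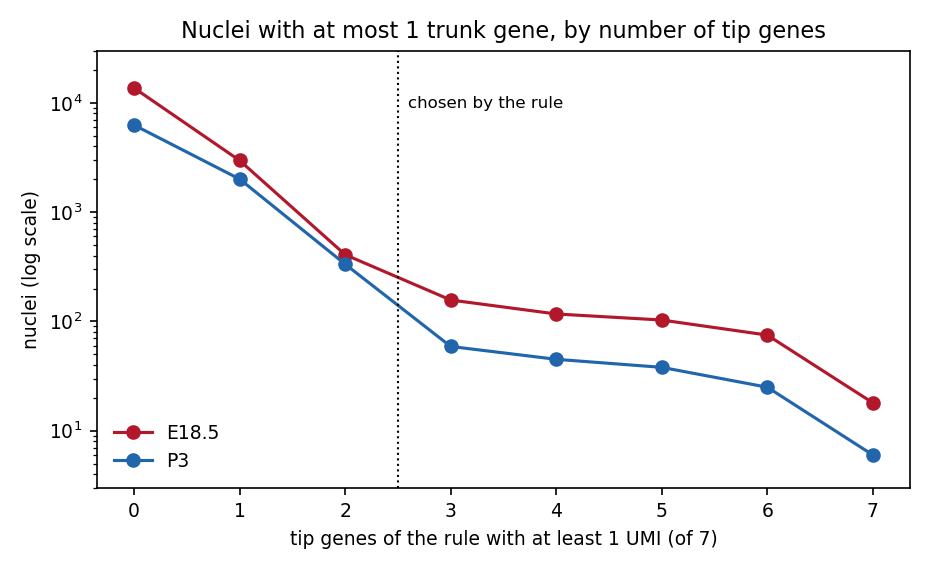
Number of nuclei (log scale) by how many of the 7 tip genes had a UMI, among nuclei with at most 1 trunk gene, at E18.5 (red) and P3 (blue). The dotted line is the threshold of 3 genes; 408 nuclei at E18.5 and 334 at P3 had 2 tip genes and lie just outside it, and 157 and 59 had 3.

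The tip nuclei were deeper than the rest. They had a median of 3333 UMIs at E18.5 against 2961 over all nuclei within the limits, and 5707 against 4330 at P3, and a rule that needs several genes detected favours deep nuclei. When each nucleus was thinned to 1000 UMIs before the choice, 219 nuclei (1.17%) were chosen at E18.5 and 53 (0.571%) at P3. Among the tip nuclei at E18.5, 16.2% were doublets by scrublet, against 12.3% of all nuclei within the limits, and the shares at P3 were 19.1% and 12.1%. The 76 called nuclei at E18.5 held 611 CPM of 10 summed nephron progenitor genes, against 183 CPM in the 394 others. Gfra1 stood at 857 CPM in the called and 1407 CPM in the uncalled tip nuclei at E18.5, and at 691 and 1269 CPM at P3. Gfra1 was thus higher where no doublet was called, at both ages.

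The 7 tip genes are high in these nuclei because the rule asked for them, so each was measured in nuclei chosen by at least 3 of the other 6. These nuclei had at most 1 trunk gene and were set against nuclei with fewer than 3 of the other 6. Nuclei with at least 3 of the other 6 but 2 or more trunk genes were in neither group. Ret had a UMI in 139 of 448 chosen nuclei at E18.5, or 31.0%, and in 1.07% of nuclei with fewer than 3 of the other 6. At P3 the shares were 40.9% of 164 and 0.937%. Its level was 118 CPM against 3.67 CPM at E18.5 and 165 against 2.32 CPM at P3. A Ret UMI was thus found in a minority of the nuclei that carried the other tip genes at both ages, and seldom in nuclei with fewer of them. A nucleus without a Ret UMI can still express Ret, and the part of depth in these shares was not tested.

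The remaining 6 genes were also higher in nuclei chosen without them. Wnt11, the secreted tip ligand, stood at 93.9 CPM (79.5 to 110.0) against 11.4 at E18.5 and at 49.1 CPM (35.8 to 65.8) against 18.0 at P3. Its ratio of 2.73 at P3 was the lowest of the 7. Slco4c1, an organic anion transporter, stood at 511 against 12.4 CPM at E18.5 and 453 against 11.3 CPM at P3. Ros1, a receptor tyrosine kinase, had a UMI in 66.0% of nuclei chosen without it at E18.5 and in 50.7% at P3. Dok6, an adaptor that binds activated Ret, had one in 70.0% and 74.6%. Nrg3, a neuregulin that binds the receptor ErbB4, had one in 84.2% and 74.3%, and Hs3st3a1, a heparan sulphate sulphotransferase, in 54.1% and 58.1%. In nuclei with fewer than 3 of the other 6 genes, these 4 genes were found in between 3.61% (Ros1, E18.5) and 8.11% (Dok6, P3).

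**Figure D2:**
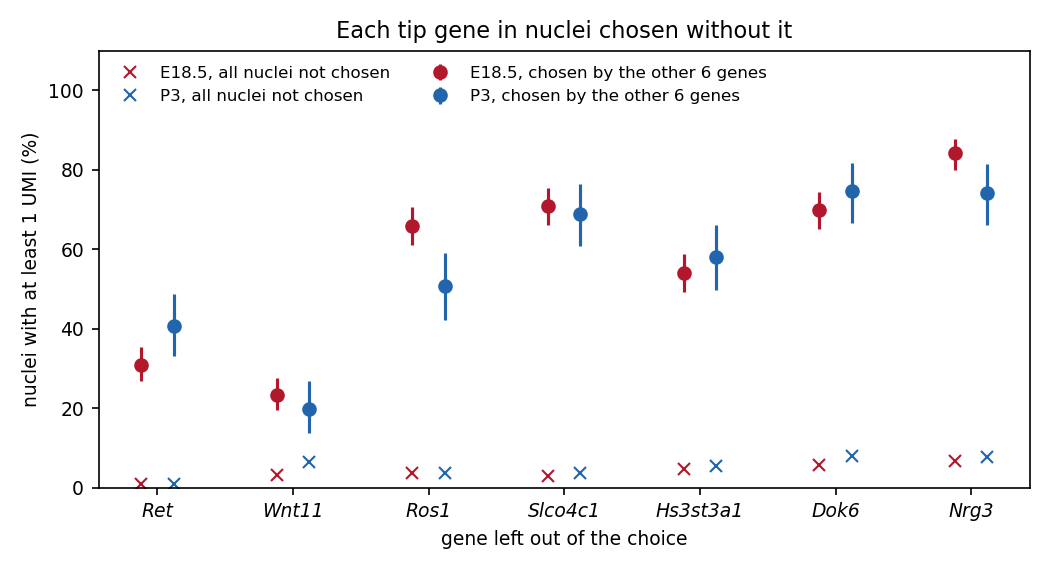
Share of nuclei with a UMI of each tip gene (y axis, percent) in nuclei chosen by at least 3 of the other 6 genes (circles, bars are 95% exact binomial intervals) and in all nuclei not chosen (crosses), at E18.5 (red) and P3 (blue). Every circle lies above the cross of its gene and age; Ret and Wnt11 were found in the fewest chosen nuclei and Nrg3 in the most at E18.5.

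Among 8654 genes with a mean level of at least 20 CPM at E18.5, the rule's genes left out, 294 (3.4%) were at least 2-fold higher in tip nuclei than in all other nuclei and 269 (3.11%) at least 2-fold lower, with 10 CPM added to both levels. At P3, 279 of 8112 (3.44%) were higher and 315 (3.88%) lower. Against principal-like nuclei, 300 of 8539 genes (3.51%) were higher and 219 (2.56%) lower at E18.5, and 408 of 7920 (5.15%) higher and 258 (3.26%) lower at P3. A gene could reach the mean through the group in which it is high, so counts over a gene list describe the genes that were measured and are no support for a direction of the list. Of the genes higher than in all other nuclei, 207 were higher at both ages, 70.4% of those at E18.5 and 74.2% of those at P3. Of the lower genes, 123 were lower at both. The 2 ages come from separate libraries, and no gene was 2-fold higher at one age and 2-fold lower at the other. With barcodes above the UMI limits let in, 182 genes were higher and 18 lower than in all other nuclei at E18.5, and 82 and 9 at P3. The same setting gave 142 higher and 135 lower against principal-like nuclei at E18.5, and 146 and 145 at P3. Choosing nuclei by 7 genes also raises whatever is expressed with them, so these counts describe the tip nuclei and are no test of them.

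The 20 genes with the highest ratio to all other nuclei, among those with at least 50 CPM in tip nuclei, held 13 in common between the ages. Ctnnd2, which encodes the adhesion protein delta-catenin, stood at 1017 CPM in tip nuclei, 43.2 in all others and 53.2 in principal-like nuclei at E18.5. At P3 it stood at 1254, 44.6 and 92.6 CPM. Grik2, a kainate-type glutamate receptor subunit, stood at 1449 CPM in tip, 65.5 in all other and 63.6 in principal-like nuclei at E18.5, and at 1032, 49.1 and 85.1 CPM at P3. Both genes were thus higher in tip nuclei than in principal-like nuclei and than in all other nuclei pooled. Principal-like nuclei had been chosen for at most 1 tip gene, so they leave out trunk nuclei with more. The 105 nuclei at E18.5 with at least 3 tip genes and at least 2 trunk genes held 364 CPM of Ctnnd2 and 925 of Grik2. The 51 such nuclei at P3 held 580 and 345 CPM. The non-coding transcript 9230110F11Rik, on chromosome 8, was also high in principal-like nuclei, with 1756 CPM in tip, 588 in principal-like and 98.6 in all other nuclei at E18.5.

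Several leading genes are better known from neurons. Gabra2, a subunit of the GABA-A receptor, stood at 134 CPM in tip nuclei against 7.79 in others at E18.5 and 178 against 8.49 at P3. Dscam, a cell adhesion molecule, stood at 99.8 against 8.14 and at 157 against 15.1 CPM. Fgf12, an intracellular relative of the fibroblast growth factors, stood at 289.9 CPM in tip and 79.8 CPM in principal-like nuclei at E18.5, but at 535 and 449 CPM at P3. The marker genes of neurons themselves were low. Of 10 such genes, 2 had no UMI in tip nuclei at E18.5 and 8 had none at P3, their sum was 47.8 and 30.6 CPM against 50.8 and 23.6 in other nuclei, and Elavl4 was the most abundant with 20.1 and 26.7 CPM. Of 8 glial genes, 1 and 5 had no UMI, and the sum was 46.0 and 47.4 CPM.

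Other genes of the leading 20 at E18.5 were Frmd5, Luzp2, Kcnh5 (a potassium channel), Adamts18 (a secreted metalloprotease), Moxd1, Calb1, Chst9 and Kctd16, with the non-coding Gm14133, Gm35019 and Gm13963. Gm14133 stood at 124 CPM against 1.55 at E18.5 and 101 against 1.03 at P3, and no UMI of it was counted in principal-like nuclei at either age. The leading genes at P3 outside this set were Gm609, B4galnt2, Cntn5, Ralyl, C130071C03Rik, Tbc1d9 and Gabrg1. B4galnt2, a glycosyltransferase, stood at 37.8 CPM in tip nuclei at E18.5 and 87.9 at P3, against 2.67 and 2.76 CPM in other nuclei. Nrg3os and Gm20642 lie antisense inside Nrg3, a gene of the rule, and Gm13963 lies antisense to Fmn1. Whether counting used strand is not given in the sources used here, so their reads cannot be told apart from those of the genes they overlap.

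The label of ureteric tip was checked against 16 tip genes known from development that the rule did not use. Over all 16, levels summed to 2907 CPM in tip, 462 in principal-like and 507 in all other nuclei at E18.5, and to 2078, 299 and 415 CPM at P3. Gfra1 was the most abundant of them at both ages. In tip nuclei, 13 of the 16 stood at 20 CPM or more at each age, and 1 had no UMI at P3.

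The Ret pathway was represented from receptor to target. Gfra1, the co-receptor of Ret, stood at 1293 CPM (1239 to 1348) in tip nuclei, 229 in principal-like, 130.0 in all other and 68.8 in endothelium-marked nuclei at E18.5. At P3 the same groups stood at 1130.0, 127, 84.7 and 43.8 CPM. A Gfra1 UMI was found in 90.6% of tip nuclei at E18.5 and 85.0% at P3. After thinning to 1000 UMIs it was found in 69.4% and 56.1% of them, and in 4.54% and 2.35% of endothelium-marked nuclei. Most tip nuclei thus had Gfra1 at their own depth at both ages.

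Etv4 and Etv5, the transcription factors downstream of Ret, were high in tip nuclei and low in the trunk. Etv4 stood at 271 CPM in tip and 39.1 in all other nuclei at E18.5, and at 129 CPM in tip, 10.5 in principal-like and 17.8 in all other nuclei at P3. Etv5 stood at 272 CPM in tip, 26.6 in principal-like and 43.4 in all other nuclei at E18.5 and at 160.0, 10.5 and 37.8 CPM at P3. The ratio of tip to principal-like nuclei was 14.3 (9.13 to 23.6) for Etv4 and 10.2 (6.97 to 15.5) for Etv5 at E18.5. Sox9, a transcription factor needed for branching, stood at 75.6 CPM in tip and 4.75 in principal-like nuclei at E18.5, and at 44.4 and 5.97 CPM at P3.

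Spry1 and Spred2 encode inhibitors of such receptor signalling, and their levels are given here against principal-like nuclei only. Spry1 stood at 75.0 CPM in tip and 24.7 in principal-like nuclei at E18.5 and at 52.4 and 20.9 CPM at P3. Spred2 stood at 366 and 64.6 CPM at E18.5 and at 394 and 64.2 CPM at P3. The ligand gene Gdnf, which nephron progenitors make, stood at 13.0 CPM in tip and 153 CPM in nephron progenitor-like nuclei at E18.5. The latter had been chosen partly by Gdnf, and Gdnf, below 20 CPM in tip nuclei, was named after its values were seen. Of 29 genes of GDNF and Ret signalling outside the rule, 17 were tested at E18.5, with 4 at least 2-fold higher than in all other nuclei and 1 lower, and 15 at P3, with 4 higher and 0 lower. The 4 higher genes included Gfra1, Etv4 and Etv5 at each age. Over all genes, 3.4% were higher and 3.11% lower at E18.5 and 3.44% and 3.88% at P3. The median log2 ratio of the list was 0.27 at both ages. Against principal-like nuclei, 8 of 16 were higher at E18.5, beside 3.51% of all genes, and 6 of 13 at P3, beside 5.15%, with none lower and medians of 0.75 and 0.94.

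**Figure D3:**
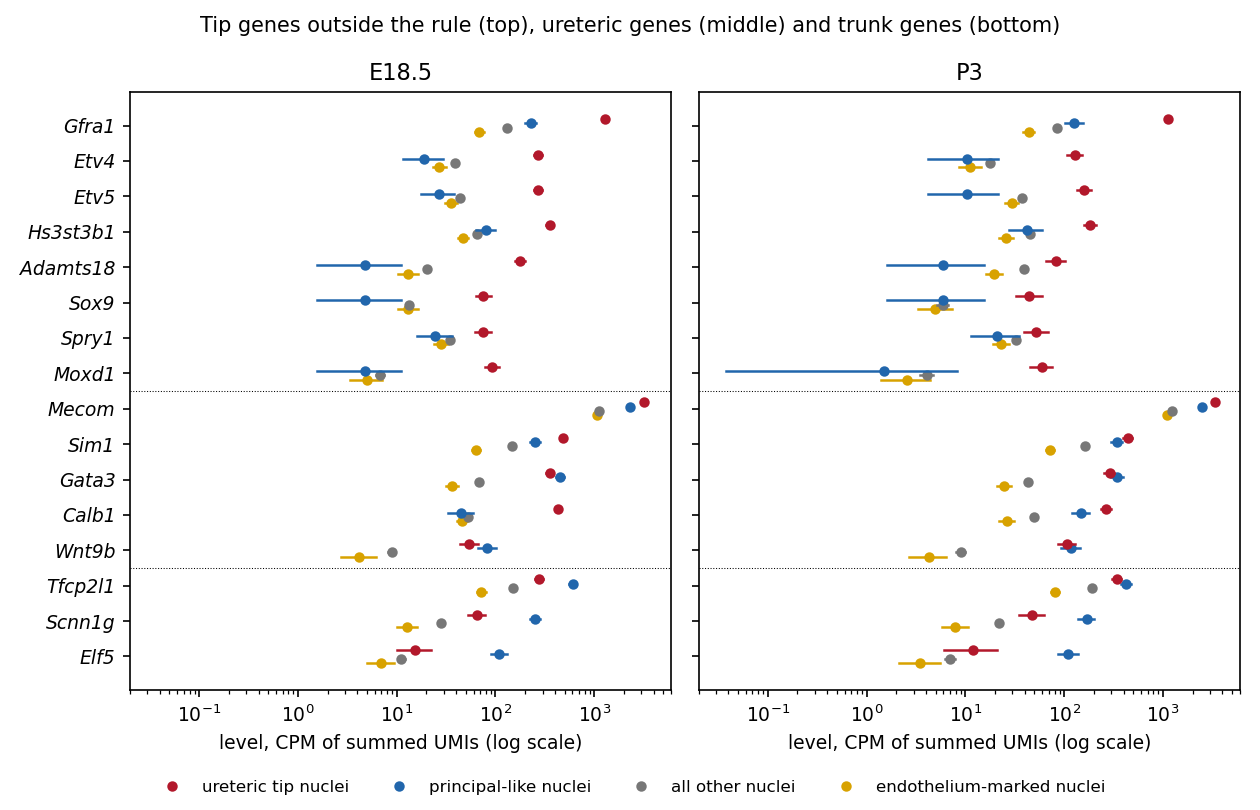
Level (CPM of summed UMIs, log scale) of 8 tip genes outside the rule, 5 ureteric genes and 3 trunk genes in ureteric tip, principal-like, all other and endothelium-marked nuclei at E18.5 and P3; bars are 95% exact Poisson intervals. Tip genes are highest in the tip nuclei, ureteric genes other than Calb1 at E18.5 are high in tip and principal-like nuclei, and trunk genes are highest in principal-like nuclei.

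Etv4 and Etv5 belong to the ETS family, whose members bind sites built on the letters GGAA. RefSeq promoters, 250 bases before to 50 bases after each start on GRCm38.p6, were searched for CCGGAA on both strands, which reads TTCCGG where the match is on the opposite strand, for 11 genes of the tip, namely Gfra1, Hs3st3a1, Hs3st3b1, Wnt11, Etv5, Spry1, Adamts18, Ctnnd2, Grik2, Ros1 and Slco4c1. The 11 genes have 13 promoter entries, of which 3, each of another gene, hold a match, and 4894 of all 32851 promoters (14.9%) hold one. Gfra1 and Grik2 are among the leading genes of the tip nuclei and Wnt11 is a gene of the rule, and the 30 bases around each match follow, 5′ to 3′ on the strand of the gene, with the matching letters in capitals.
Gfra1, 156 bases before the start, chr19:58455537-58455566: gagaaagtgaggCCGGAAagagaaagagga
Grik2, 199 bases before the start, chr10:49788936-49788965: ggtggtcagtacCCGGAAttctctccctgg
Grik2, 223 bases before the start, chr10:49788960-49788989: gggccgagggTTCCGGAAgcactaggtggt
Wnt11, 203 bases before its second start, chr7:98838630-98838659: gcctaaatcataTTCCGGatcagttcctct
Gfra1 and Grik2 lie on the minus strand and Wnt11 on the plus strand. The Gfra1 match falls in an exon of a Gfra1 transcript with an earlier start in GENCODE M21, and both Grik2 matches fall in an exon of Gm48123 on the opposite strand. The Grik2 match at 223 bases overlaps a match on the other strand. A match is a description of the letters and was not tested as a site.

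A pair of heparan sulphate 3-O-sulphotransferases was high in the tip. Hs3st3b1, the nearest relative of the rule's Hs3st3a1, stood at 354 CPM in tip, 79.8 in principal-like and 65.6 in all other nuclei at E18.5, and at 184, 41.8 and 44.7 CPM at P3. The 2 genes are neighbours on mouse chromosome 11, with Hs3st3b1 at 63885792 to 63922290 on the minus strand and Hs3st3a1 at 64435332 to 64522841 on the plus strand in GRCm38. A wider list held 32 genes outside the rule for heparan sulphate synthesis and its proteoglycan cores. Of these, 19 were tested at E18.5, and 1 was at least 2-fold higher (Hs3st3b1) and 1 lower than in all other nuclei. The median log2 ratio of the list was -0.40. At P3, 18 were tested, with 1 higher, 1 lower and a median of 0.07. Over all genes, 3.4% were higher and 3.11% lower at E18.5 and 3.44% and 3.88% at P3. Against principal-like nuclei, 2 of 20 tested were higher and 1 lower at E18.5, beside 3.51% and 2.56% of all genes, and 4 of 17 higher and 1 lower at P3, beside 5.15% and 3.26%. Ext1, which builds the chain, stood at 571 against 757 CPM, and Gpc3, a proteoglycan core, at 979 against 1436 CPM at E18.5.

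Most genes of the whole ureteric epithelium stood within 2-fold of each other in tip and principal-like nuclei. Of 18, all were tested; 9 at E18.5 and 10 at P3 were at least 2-fold higher in tip than in all other nuclei, beside 3.4% and 3.44% of all genes, and none was lower. Against principal-like nuclei, 1 was higher at E18.5, Calb1, beside 3.51% of all genes, and 1 was lower at P3, beside 3.26%. Gata3, a transcription factor of the nephric duct lineage, stood at 353 CPM in tip, 454 in principal-like and 67.8 in all other nuclei at E18.5, and at 288, 345 and 43.6 CPM at P3. Mecom, a zinc finger transcription factor, stood at 3182, 2304 and 1122 CPM at E18.5 and 3401, 2502 and 1228 CPM at P3. Endothelium-marked nuclei held 36.4 CPM of Gata3 and 1069 CPM of Mecom at E18.5, the latter being a gene that endothelium also expresses.

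Some of these genes leaned toward the tip and some toward the trunk. Calb1, the calcium-binding protein calbindin, stood at 431 CPM in tip and 44.6 in principal-like nuclei at E18.5, a ratio of 9.65 (7.18 to 13.3), and at 266 and 148 CPM at P3, a ratio of 1.80 (1.42 to 2.29). Sim1, a transcription factor, stood at 481 and 251 CPM at E18.5 and 439 and 342 CPM at P3. Wnt9b, the signal with which the ureteric epithelium induces nephrons, stood at 54.3 and 82.6 CPM at E18.5 and 107 and 116 CPM at P3, against 8.90 and 8.99 in all other nuclei. Tfap2a, also a transcription factor, stood at 107 and 61.7 CPM at E18.5 and 55.3 and 71.7 CPM at P3.

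Genes of the maturing collecting duct that the rule did not use had a lower sum in tip than in principal-like nuclei. Over all 22, levels summed to 687 CPM in tip, 1838 in principal-like and 512 in all other nuclei at E18.5, and to 753, 1541 and 550.5 CPM at P3. In tip nuclei, 6 of the 22 stood at 20 CPM or more at E18.5 and 4 at P3. Tfcp2l1, a transcription factor of collecting duct cells, stood at 278 CPM in tip, 602 in principal-like and 151 in all other nuclei at E18.5. At P3 it stood at 342, 424 and 192 CPM, within 2-fold of principal-like nuclei. Scnn1g, a subunit of the epithelial sodium channel, stood at 64.4 and 251 CPM at E18.5 and 47.4 and 169 CPM at P3. Nr3c2, the mineralocorticoid receptor, stood at 133 and 397 CPM at E18.5 and 216 and 433 CPM at P3. Tip nuclei had been chosen for few trunk genes and principal-like nuclei for many, so genes that go with them differ by that choice.

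Trunk genes below 20 CPM in tip nuclei lie outside the rule for named genes and were chosen after their values were seen. Elf5, a transcription factor of the maturing trunk, stood at 15.3 against 109 CPM at E18.5 and 11.9 against 110.5 CPM at P3. Wnt7b, a trunk signal that patterns the medulla, stood at 6.49 against 54.1 and at 9.88 against 80.6 CPM. Aldh1a3, an enzyme of retinoic acid synthesis with 69.7 CPM in tip nuclei, stood at 276 CPM in principal-like nuclei at E18.5, and at 103 and 708 CPM at P3. It was the only one of 15 retinoic acid genes at least 2-fold lower in tip than in principal-like nuclei at E18.5, of 6 tested, where 2.56% of all genes were. At P3, 1 of 6 was lower and 1 higher, beside 3.26% and 5.15% of all genes.

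Among 40 transcription factors of the collecting system, which share Gata3, Mecom, Etv4 and others with the lists above, 11 of 26 tested were at least 2-fold higher in tip than in all other nuclei at E18.5 and 1 lower, and 10 of 25 higher and 0 lower at P3. Over all genes, 3.4% were higher and 3.11% lower at E18.5 and 3.44% and 3.88% at P3. Against principal-like nuclei, 4 of 29 were higher and 5 lower at E18.5, beside 3.51% and 2.56% of all genes, and 4 of 28 higher and 5 lower at P3, beside 5.15% and 3.26%. Ehf, an epithelial ETS factor, stood at 88.0 CPM in tip and 139 in principal-like nuclei at E18.5 and 85.9 and 197 CPM at P3. Tbx3 stood at 122 and 212 CPM at E18.5 and 117 and 252 CPM at P3. Esrrg, an orphan nuclear receptor, stood at 885 CPM in tip, 2582 in principal-like and 1148 in all other nuclei at E18.5. At P3 its levels were 1205, 2245 and 1902 CPM.

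Most of the Wnt signalling genes tested stood within 2-fold of their level elsewhere. Of 46 genes outside the rule, 32 were tested at E18.5, with 5 at least 2-fold higher than in all other nuclei and 2 lower, and 30 at P3, with 4 higher and 1 lower. Over all genes, 3.4% were higher and 3.11% lower at E18.5 and 3.44% and 3.88% at P3. The median log2 ratio of the list was 0.04 at E18.5 and 0.20 at P3, beside 0.00 and 0.04 over all genes tested. Against principal-like nuclei, 3 of 31 were higher and 2 lower at E18.5, beside 3.51% and 2.56% of all genes, and 6 of 27 higher and 4 lower at P3, beside 5.15% and 3.26%. Lgr5, a receptor for R-spondins, stood at 126 CPM in tip, 21.8 in principal-like and 34.0 in all other nuclei at E18.5, and at 88.9, 28.4 and 18.0 CPM at P3. Rnf43, a ubiquitin ligase that removes Frizzled receptors, was shared with the trunk, with 185, 166 and 25.8 CPM at E18.5 and 209, 393 and 42.0 CPM at P3. Its relative Znrf3 stood at 609, 317 and 280.0 CPM at E18.5. Ror1, a Wnt co-receptor, stood at 750.4 CPM in tip, 141 in principal-like and 325 in all other nuclei at E18.5, and at 664, 175 and 560.0 CPM at P3. Tcf7l2, a nuclear partner of beta-catenin, stood at 299.9 CPM in tip and 669 in principal-like nuclei at E18.5 and at 324 and 715 CPM at P3.

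Fibroblast growth factor receptors were present in tip and trunk. Fgfr2, the main receptor of ureteric epithelium, stood at 1151 CPM in tip, 2269 in principal-like and 749 in all other nuclei at E18.5, and at 1555, 2193 and 674 CPM at P3. Fgfr4, a relative of it, stood at 54.9 CPM in tip and 14.2 in principal-like nuclei at E18.5 and at 62.2 and 20.9 CPM at P3. Of 12 genes of this family and its adaptors, 1 was at least 2-fold higher than in all other nuclei at each age, of 5 tested, where 3.4% and 3.44% of all genes were. Erbb4, the receptor that binds the rule's Nrg3, stood at 1405 CPM in tip, 1441 in principal-like and 1287 in all other nuclei at E18.5, and at 3669.6, 1890.1 and 2244 CPM at P3. Of 14 Notch genes, 5 were tested at each age and none was 2-fold higher or lower in tip nuclei in any of these comparisons.

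Guidance genes were called in both directions, and most of those tested stood within 2-fold in each comparison. Of 31 guidance genes, 30 were tested at E18.5, with 5 at least 2-fold higher and 6 lower than in all other nuclei, and 28 at P3, with 4 higher and 4 lower, beside 3.4% higher and 3.11% lower over all genes at E18.5 and 3.44% and 3.88% at P3. The median log2 ratio of the list was 0.21 at E18.5 and 0.15 at P3. Against principal-like nuclei, 6 of 25 were higher and 2 lower at E18.5, beside 3.51% and 2.56% of all genes, and 8 of 26 higher and 1 lower at P3, beside 5.15% and 3.26%. The medians in this comparison were 0.10 and 0.30, beside 0.04 and 0.09 over all genes tested. Slit2, a secreted ligand of Robo receptors, stood at 2438 CPM in tip, 1026 in principal-like and 743 in all other nuclei at E18.5, and at 2099, 938 and 873 CPM at P3. Its receptor Robo2, which nephron progenitors carry, stood at 840.1 CPM in tip and 5669 CPM in nephron progenitor-like nuclei at E18.5. Sema6a stood at 659 CPM in tip, 90.2 in principal-like and 213 in all other nuclei at E18.5, and at 458, 103 and 285 CPM at P3. Sema3d stood at 327, 82.6 and 82.4 CPM at E18.5 and at 369, 41.8 and 138 CPM at P3. Both semaphorins were thus higher in the tip than in the trunk at both ages.

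Basement membrane and adhesion genes were called in both directions against all other nuclei. Of 28, 27 were tested, with 4 at least 2-fold higher and 4 lower than in all other nuclei at E18.5 and 4 higher and 1 lower at P3. The shares over all genes were 3.4% and 3.11% at E18.5 and 3.44% and 3.88% at P3. In the comparison with principal-like nuclei, 2 of 27 were higher and 0 lower at E18.5, beside 3.51% and 2.56% of all genes. At P3, 3 of 27 were higher and 4 lower, beside 5.15% and 3.26%. Cdh3, P-cadherin, stood at 138 CPM in tip, 38.9 in principal-like and 30.0 in all other nuclei at E18.5, and at 159, 70.2 and 29.8 CPM at P3. Frem2, of the Fraser complex in the basement membrane, stood at 388, 119.7 and 98.1 CPM at E18.5 and 269.7, 209 and 122 CPM at P3. Fras1, its partner, stood at 1167, 923 and 416 CPM at E18.5 and 1042, 1478 and 480.1 CPM at P3. Cdh6, a cadherin of early nephrons, stood at 132 CPM in tip against 331 in all other nuclei at E18.5 and 158 against 299 at P3. Cdh2, N-cadherin, stood at 49.0 against 153 and 59.3 against 109.8 CPM.

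A pair of transporters beyond Slco4c1 was higher as well. Abcc4, an exporter of organic anions and cyclic nucleotides, stood at 141 CPM in tip, 38.9 in principal-like and 41.0 in all other nuclei at E18.5, and at 206, 161 and 96.6 CPM at P3. Slco3a1, of the same family as Slco4c1, stood at 245, 78.8 and 114 CPM at E18.5 and at 449, 149 and 190.1 CPM at P3. These were the 2 genes at least 2-fold higher than in all other nuclei at both ages, of 11 transporters outside the rule, of which 4 and 6 were tested, and 3.4% and 3.44% of all genes were higher.

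Some genes of S phase and mitosis were higher in the tip than in the trunk. Of 46, 39 were tested against principal-like nuclei at E18.5 and 18 were at least 2-fold higher, none lower, where 3.51% of all genes were higher, with a median log2 ratio of 0.89 beside 0.04 over all genes tested. At P3, 29 were tested and 5 were higher, where 5.15% of all genes were, with a median of 0.74 beside 0.09. The genes summed to 3619.6 CPM in tip, 1585 in principal-like and 2847 in all other nuclei at E18.5, and to 2138, 1119.7 and 2083 CPM at P3. Top2a, the topoisomerase of dividing cells, stood at 368 CPM in tip and 115 in principal-like nuclei at E18.5, and at 151 and 109 CPM at P3. None of the 42 tested at E18.5 and the 33 tested at P3 was 2-fold higher or lower in tip nuclei than in all other nuclei.

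Within the tip nuclei, levels of genes outside the rule changed with the number of tip genes found. At E18.5, Etv4 stood at 53.0 CPM in nuclei with 2 tip genes, 98.9 with 3, 221 with 4, 288 with 5, 529 with 6 and 701 with 7. Gfra1 went from 334 to 896 CPM across the threshold and stood at 1610.5 CPM with 6. Gata3 ran the other way inside the rule, from 369 CPM with 3 genes and 439.5 with 4 to 202 with 7. Wnt9b stood at 82.7 CPM with 3 genes and 20.2 with 6, and Tfcp2l1 at 365 and 148 CPM. Nuclei with 6 tip genes thus held more Etv4 and Gfra1, and less Gata3, Wnt9b and Tfcp2l1, than nuclei with 3 at E18.5. Other genes differed along the same groups. Podocyte genes summed to 2898 CPM with 3 tip genes, 938 with 4, 681 with 6 and 3747 with 7. Genes of S phase and mitosis summed to 3175 CPM with 3 and 4333 with 6. Their part in these differences was not tested.

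At P3, Etv4 was lowest with 3 tip genes inside the rule, while Wnt9b did not fall from 3 to 6 genes. Etv4 stood at 51.6 CPM in nuclei with 3 tip genes, 118 with 4, 170.2 with 5, 165 with 6 and 474 with 7, the last in 6 nuclei. Gata3 stood at 228 CPM with 3, 343 with 4, 349 with 5, 286 with 6 and 99.9 with 7, so it was not lower with 6 genes than with 3. Wnt9b stood at 97.2, 107, 108 and 140.0 CPM with 3, 4, 5 and 6 genes. Its 49.9 CPM with 7 genes lies below the floor of 3 UMIs and was not compared. Median UMIs were also higher with more tip genes, at 3291 with 3 and 3836 with 6 at E18.5 and at 5236 and 6074 at P3. When every nucleus was first thinned to 1000 UMIs, which leaves all at 1 depth, Etv4 at E18.5 stood at 301 CPM in 123 nuclei with 3 tip genes, 319 in 69 with 4 and 571 in 21 with 5. Gfra1 stood at 1691, 1957 and 1571 CPM in the same nuclei, with no steady rise. Gata3 stood at 301, 275 and 429 CPM in them and Tfcp2l1 at 260.2, 246 and 143 CPM, the last of each from few UMIs. Wnt9b had too few UMIs after thinning for a level to be compared. At P3, Etv4 stood at 115 CPM in 26 thinned nuclei with 3 tip genes and 238 in 21 with 4, both from few UMIs.

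**Figure D4:**
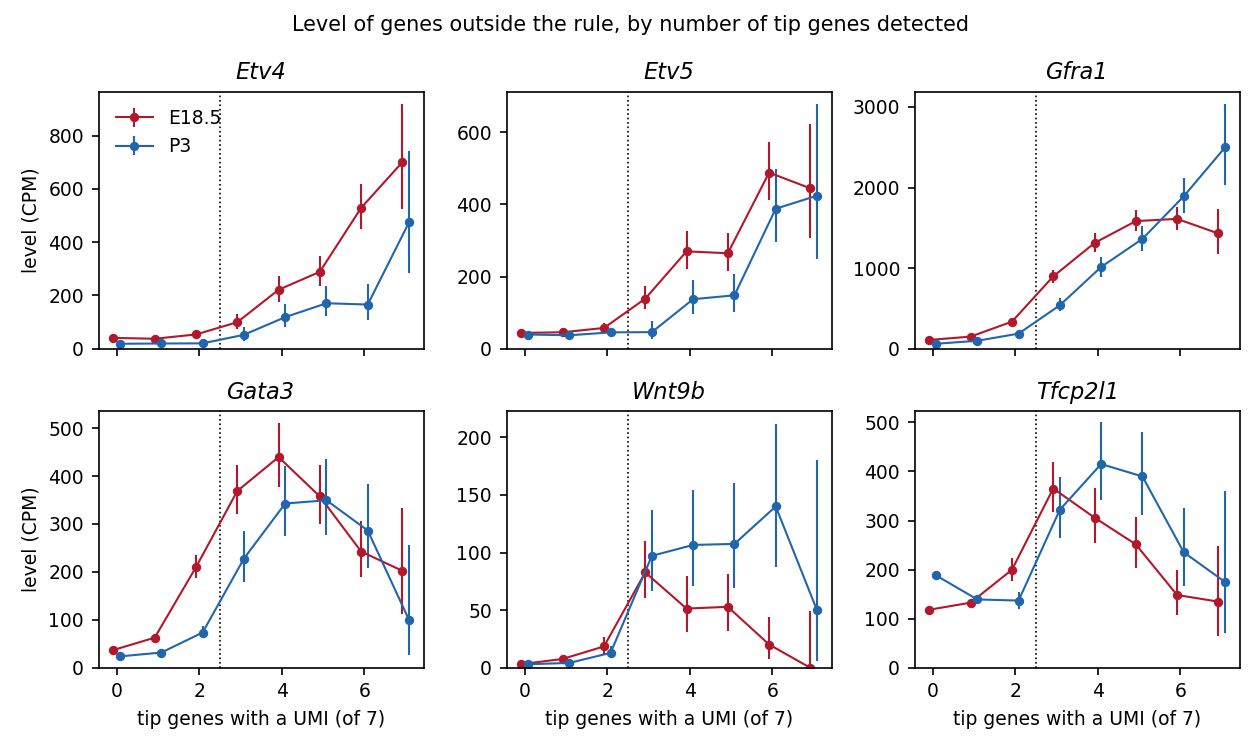
Level (CPM) of 6 genes outside the rule in nuclei with 0 to 7 tip genes and at most 1 trunk gene, at E18.5 (red) and P3 (blue); bars are 95% exact Poisson intervals and the dotted line is the threshold. Etv4, Etv5 and Gfra1 are higher with 6 tip genes than with 3, Gata3 and Tfcp2l1 are highest at 3 to 5 genes, and Wnt9b is lower with 6 genes than with 3 at E18.5 but not at P3.

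Tip nuclei were also divided by a Ret UMI. Ret is a gene of the rule, so nuclei without it needed 3 of the other tip genes and nuclei with it only 2, and the values are a description. At E18.5, 161 of 470 had one and their Etv4 stood at 366 CPM, against 221 in the 309 without. The median depth of both groups was 3333 UMIs. Podocyte genes summed to 1144 CPM in the nuclei with Ret and 1948 in those without. At P3, 76 of 173 had one, with 189 against 80.8 CPM of Etv4 and 268 against 71.8 CPM of Etv5, at median depths of 5728 and 5678 UMIs. Summed podocyte genes stood at 721 against 1716 CPM, stromal genes at 806 against 1409 and endothelial genes at 110 against 302. Proximal tubule genes ran the other way, at 1199 against 458 CPM. The part of other cell types in this division was not tested. The 105 nuclei at E18.5 that had both 3 tip genes and 2 trunk genes or more lay between tip and principal-like nuclei in Gfra1 (608 CPM), Etv4 (50.3 CPM) and Scnn1g (187 CPM). Their Wnt9b stood at 98.2 CPM. The 51 such nuclei at P3 held 549.9 CPM of Gfra1, 158 of Scnn1g and 86.2 of Wnt9b, and their Etv4, at 8.92 CPM, rests on 3 UMIs, the floor.

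Summed markers of endothelium, nephron progenitors, podocytes, stroma and proximal tubule were lower in tip nuclei than in all other nuclei at both ages. Endothelial genes summed to 312 CPM against 693 at E18.5, with 4 of 7 at least 2-fold lower, beside 3.11% of all genes, and to 215 against 823 at P3, with all 7 lower, beside 3.88%. Nephron progenitor genes summed to 272 against 814 CPM and 302 against 769 CPM, with Itga8 the most abundant at both ages. Podocyte genes summed to 1672 against 3404 and 1268 against 2512 CPM, stromal genes to 1018 against 2196 and 1138 against 2034 CPM, and proximal tubule genes to 458 against 868 and 791 against 2302 CPM. None of these sums reached 0. Other lists stood closer at E18.5. Genes of the loop of Henle and distal tubule, which include Calb1, summed to 935 against 917 CPM at E18.5. At P3 they summed to 901 against 1587 CPM. Of the 6 tested there, 3 were at least 2-fold lower and 1 higher, beside 3.88% and 3.44% of all genes. Genes of the committing nephron stood closer at both ages, at 791 against 984 CPM at E18.5 and 1123 against 1127 CPM at P3. Against principal-like nuclei at P3, 4 of 7 stromal genes and 3 of 4 podocyte genes tested were at least 2-fold higher in tip nuclei, beside 5.15% of all genes, and at E18.5 none was, of 9 and 8, beside 3.51%. In the 140 tip nuclei at P3 that were not called doublets, stromal genes summed to 1107 and podocyte genes to 750.2 CPM, against 570.3 and 545 CPM in principal-like nuclei. The part of free RNA in these levels was not tested. Leukocyte genes summed to 53.1 and 51.4 CPM in tip nuclei. The sums in principal-like nuclei, 220.4 CPM for endothelium and 289.7 for nephron progenitors at E18.5, give the level at which these markers stood in another ureteric population of the same library.

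Between the ages, 170 of 8397 genes (2.02%) were at least 2-fold higher in tip nuclei at P3 than at E18.5 and 465 (5.54%) at least 2-fold lower. With each nucleus thinned to 1000 UMIs, which leaves fewer nuclei and UMIs, 1132 were higher and 1179 lower. Of the tip genes outside the rule, 13 were tested between the ages. At P3, 2 of them were at least 2-fold lower and 0 higher, beside 5.54% and 2.02% of all genes. Their median log2 ratio was -0.54, beside -0.04 over all genes tested. Over the 8 genes of the list tested in all other nuclei, a smaller set, the median was -0.19. Markers of other cell types changed with age in the tip nuclei too. Of 8 podocyte genes, 4 were lower at P3, beside 5.54% of all genes, against 1 of 8 in all other nuclei. Of 6 proximal tubule genes tested, 1 was higher, beside 2.02% of all genes, with a median of 0.76. In all other nuclei their median was 1.16 over 8 genes. Their part in the change of the tip genes was not tested. Etv4 had a ratio of P3 to E18.5 of 0.478 (0.390 to 0.581) in tip nuclei and 0.455 in all other nuclei. Gfra1 had a ratio of 0.874 (0.813 to 0.939) in tip nuclei and 0.651 in all others. Hs3st3b1 had 0.519 and 0.682. For all 3 genes the nuclei outside the tip were also lower at P3. Measured in nuclei chosen without it, Ret stood at 118 CPM (102 to 136) at E18.5 and 165 CPM (141 to 193) at P3, the only tip gene of the rule that was higher at P3. In nuclei chosen by at least 2 of the other 6 genes the order turned, with 72.2 CPM of Ret at E18.5 and 61.7 at P3. Hs3st3a1 stood at 478 and 243 CPM.

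Some genes were higher at P3 in tip nuclei by more than in other nuclei. Wnt9b had a ratio of 1.96 (1.47 to 2.62) in tip, 1.41 in principal-like and 1.01 in all other nuclei. Erbb4 had 2.61 (2.48 to 2.75), 1.31 and 1.74 in the same order. Among the 10 genes with the highest ratio, Palld, an actin-associated protein, had 4.01 in tip, 0.681 in principal-like and 1.40 in all other nuclei, Kcnb2, a potassium channel, 3.93, 0.629 and 1.76, and Plcb1, a phospholipase, 3.78, 1.11 and 1.94. The 10 were picked by their ratio in tip nuclei, so a lower ratio in other nuclei goes in part with that choice. Kcnb2 was lower in tip than in all other nuclei at both ages, at 131 against 376 CPM and 516 against 664. Stromal genes summed to 1018 CPM at E18.5 and 1138 at P3 in tip nuclei, and to 1113 and 570 in principal-like nuclei. The part of other cell types in these ratios was not tested. Kcnd2, Lars2, Slc5a12 and Gm19951 were among the 10 as well and were higher at P3 in all other nuclei too, with ratios there from 3.14 (Lars2) to 11.4 (Gm19951). Kcnd3 and Slc24a3 had ratios of 4.94 and 4.71 in tip and 2.17 and 1.91 in all other nuclei.

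Of 19 imprinted and fetal growth genes, 13 were tested between the ages, and 3 were at least 2-fold lower in tip nuclei at P3 and none higher, beside 5.54% of all genes lower. The median log2 ratio of the list was -0.76 in tip and -0.68 in all other nuclei, beside -0.04 and -0.03 over all genes tested. Igf2, a fetal growth factor, stood at 82.7 CPM in tip nuclei at E18.5 and 14.8 at P3, against 108 and 20.6 in all other nuclei. Cdkn1c, an imprinted cell cycle inhibitor, stood at 379 and 113 CPM in tip and 515 and 147 in all other nuclei. Among S phase and mitosis genes, 7 of 39 were at least 2-fold lower in tip nuclei at P3, beside 5.54% of all genes, with a median log2 ratio of -0.68 beside -0.04 over all genes tested. In all other nuclei the list had a median of -0.41, beside -0.03 over all genes tested. Mycn, floxed but not deleted at E18.5, had 39 UMIs in tip nuclei at E18.5 and 6 at P3, a ratio of levels of 0.257 (0.0891 to 0.612), against 0.635 in all other nuclei. Myc had 19 and 4 UMIs, a ratio of 0.352 (0.0871 to 1.06) whose interval includes 1. The 10 genes with the lowest ratio were hemoglobin genes, Fabp4, Tpt1 and ribosomal protein genes. Hbb-bs, a hemoglobin gene of red cells, had a ratio of 0.117 in tip and 0.134 in all other nuclei.

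The ratio between the ages followed the span of the gene on the genome. In tip nuclei, the median log2 ratio of P3 to E18.5 was -0.43 in the fifth of genes with the shortest spans (median 7.84 kb) and 0.27 in the fifth with the longest (median 182 kb). In all other nuclei the corresponding medians were -0.50 and 0.29. A like slope thus ran through the tip and the rest of the kidney, and the files were counted with different releases of Cell Ranger, by their headers 7.0.0 for the E18.5 library and 5.0.1 for the P3 library. The part of the release, the library and the age in this slope was not tested.

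**Figure D5:**
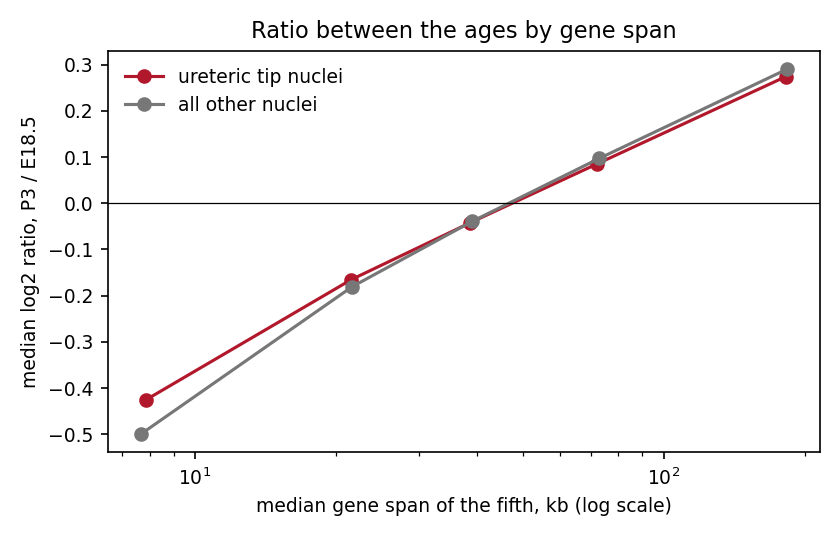
Median log2 ratio of P3 to E18.5 (y axis) of genes in 5 groups of gene span (x axis, median span in kb, log scale) in ureteric tip nuclei (red) and all other nuclei (grey). Both lines rise from the shortest genes, -0.43 and -0.50, to the longest, 0.27 and 0.29.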

How the data were processed

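Nuclei of whole kidneys pooled from several mice were captured with the 10x Chromium 3' kit and sequenced in 1 library at E18.5 and 1 at P3. The deposited values are raw counts of UMIs per gene and barcode, without normalization, for 32285 genes. The authors aligned and counted the reads with Cell Ranger. The file headers give 7.0.0 for the E18.5 library and 5.0.1 for the P3 library, while the submitters' processing notes name 5.0.1 for both, with the mouse build mm10. Whether intronic reads and strand were used in counting is not given in the sources used here. Labels give C57BL/6J at P3, while the study's methods describe a mixed background for both ages.

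From the counts, nuclei were chosen by the rule of the report, UMIs were summed per group of nuclei, and sums were compared as CPM ratios. A gene was called when the ratio reached 2 or 0.5 with 10 CPM added to both levels and a mean of at least 20 CPM. Shares have Clopper-Pearson intervals, levels Poisson intervals and ratios conditional binomial intervals. Nephron progenitor-like nuclei had at least 3 of 7 progenitor genes. Scrublet (scanpy 1.11.5, expected doublet rate 0.1) was run on each library, its doublets were kept, and alternatives without them were computed. Thinning drew 1000 UMIs per nucleus with a fixed seed. Gene positions came from GENCODE M21, in which 32158 of 32285 identifiers were found. The calls and intervals were tested on simulated data. Fewer of the genes lowered there than of those raised were recovered at both ages, so counts of lower genes are less complete than counts of higher genes. Python 3.11.15, numpy 2.4.6, scipy 1.17.1, pandas 2.3.3 and matplotlib 3.10.9 were used.

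The members, the gene lists and the alternatives were chosen with earlier results of these data known. Genes named are the 12 of the rule, genes of the 29 lists with at least 20 CPM in tip nuclei, the 20 with the highest ratio to other nuclei at each age, and the 10 with the highest and lowest ratios between ages among genes with at least 100 CPM at one age, and Myc and Mycn. Exceptions are named in the text. The study's other data were not analysed here. Some genes that these rules name are not reported here.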

Additional observations from a re-analysis of the deposited data

Results flagged for a closer look

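Barcodes above the upper UMI limit, with at most 0.6% of mitochondrial UMIs, entered a comparison only where that limit was lifted, and some of them met the gene conditions of the tip nuclei. At E18.5, 177 of 2305 such barcodes did, or 7.68% (6.62 to 8.84), against 2.52% of nuclei within the limits, and at P3, 97 of 1572, or 6.17% (5.03 to 7.48), against 1.86%. Gfra1 and Etv4 were lower in them than in the tip nuclei, with 679 CPM of Gfra1 and 156 CPM of Etv4 at E18.5 and 393 and 48.8 CPM at P3. Deeper barcodes have more chance to hold a UMI of each gene, and the part of depth and of doublets in these shares was not tested.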

How the results depend on the processing

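The ratio of tip to all other nuclei was recomputed at both ages for the 89 genes named outside the rule. Of these 1246 ratios, under 7 alternatives each, 710 stayed within their counting interval and 47 fell on the other side of 1, none of them of a gene called higher or lower in the main comparison. Ratios of single genes to principal-like nuclei and between ages were not recomputed. Of 114 alternatives of genome-wide counts, 81 were within 1.5 times of the main count. Their main counts of higher and lower genes were 294 and 269 against other nuclei and 300 and 219 against principal-like nuclei at E18.5, 279 and 315 and then 408 and 258 at P3, and 170 and 465 between ages.

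Without an upper UMI limit the share of tip nuclei was 3.08% at E18.5 and 2.49% at P3, and higher and lower genes numbered 182 and 18 against other nuclei and 142 and 135 against principal-like nuclei at E18.5, and 82 and 9 and then 146 and 145 at P3. With 1000 to 6000 UMIs at both ages, the share at P3 was 1.35% and 542 genes were lower than in other nuclei. The share was 1.68% at E18.5 and 1.23% at P3 with at least 4 tip genes, and 1.62% and 0.958% with no trunk gene. Without called doublets, 475 genes were lower than in other nuclei at P3. Thinned to 1000 UMIs, the shares were 1.17% and 0.571%, 504 genes were lower than in other nuclei at E18.5, 1331 higher and 1227 lower than in principal-like nuclei, and at P3 1175 and 935 against other nuclei and 1673 and 1381 against principal-like nuclei, with 1132 higher and 1179 lower between ages. With 1 CPM added, 714 genes were lower at P3 than at E18.5. At 3-fold, higher and lower genes numbered 118 and 45 against other nuclei and 100 and 87 against principal-like nuclei at E18.5, 106 and 32 and then 129 and 92 at P3, and 35 and 119 between ages. With principal-like nuclei taken at 2 or more trunk genes, 197 genes were higher at E18.5, and 171 were higher and 154 lower at P3. Thinning leaves fewer nuclei and UMIs in each sum; for the other settings the cause was not tested.

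In nuclei chosen by at least 2 of the other 6 tip genes, levels at E18.5 were 72.2 CPM for Ret, 63.4 for Wnt11, 268 for Ros1, 299.7 for Slco4c1, 301 for Hs3st3a1, 408 for Dok6 and 1187 for Nrg3, and at P3 61.7, 31.5, 88.9, 176, 106, 262 and 573 CPM in the same order. Without called doublets, levels at E18.5 were 461 CPM for Ros1, 569 for Slco4c1, 686 for Dok6 and 2009 for Nrg3, and at P3 535 CPM for Slco4c1, 285 for Hs3st3a1, 604 for Dok6 and 1427 for Nrg3. No paired analysis was possible because each age has 1 library and no comparison rests on a test.

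Depth limits what can be said of low genes. At 1.77 CPM for the floor at E18.5 and 2.96 at P3, the ratio between ages of a gene with a few UMIs has a wide interval, and intervals leave out the spread between animals and libraries.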
